A study of Homo sapiens with 4 samples.

Results

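Unplaced and unlocalized sequences are pieces of the human genome that the assembly holds outside its finished chromosomes. The S100A10 ChIP-seq peaks described here are those that the peak lists of HCT116 and LoVo place on any sequence other than chromosomes 1 to 22, X, Y and the mitochondrial genome, with lines of equal start and end merged into 1 interval. They numbered 665 of 4148 intervals in HCT116, or 16% (exact binomial 95% interval 14.9 to 17.2%), and 366 of 1380 in LoVo, or 26.5% (24.2 to 28.9%). Over both lists this was 1031 of 5528 intervals. In HCT116 they held 812 of the 4530 summits, and in LoVo 423 of the 1514.

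HCT116 and LoVo are established colorectal cancer cell lines. The cells were polyploid giant cancer cells (PGCCs) together with their daughter cells, and the labels state that all 4 samples had received CoCl2, a chemical mimic of hypoxia (535.5 μM, 48 h); the study's methods give a lower dose and a longer range of times. Each line was represented by 1 library immunoprecipitated with an S100A10 antibody and 1 input library of unselected DNA, so no value has a replicate error and no test was made. Binomial and Poisson intervals cover counting error only, and since reads are not independent molecules and intervals of 1 list share libraries they are too narrow. Rank intervals of medians treat summits as independent, although these share libraries and many share a sequence, so they are too narrow as well. The lots of the antibody differed between the lines, as did the tag size, 129 bp in HCT116 and 150 bp in LoVo. Neither can be told apart from the line. No untreated cells and no control antibody were part of the lists, and PGCCs and daughter cells were not separated. After filtering, the HCT116 ChIP and input libraries held 16561424 and 14962190 tags, and those of LoVo 19762814 and 12925105.

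S100A10 is a small protein of the S100 family that pairs with annexin A2 at membranes and is not a classical transcription factor. Sequences left outside the finished chromosomes are rich in what assembly methods resolve poorly, such as satellite arrays near centromeres, recent segmental duplications and the ribosomal RNA gene arrays on the short arms of the acrocentric chromosomes. A cell carries many near-identical copies of such sequence while the assembly may hold few, so that reads from many copies can pile up on 1. Input DNA passes through the same mapping without the antibody, and its local level is therefore described as well as the ChIP heights.

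For each summit, the pileup is the number of extended ChIP tags over it, scaled down to the size of the input library. The fold enrichment compares the pileup with a local background estimated from input, each with 1 added, and the local background was recovered from these columns. Its lowest possible value is the mean over the genome, which was 1.25 tags for the first line and 1.17 for LoVo. Heights are compared between the lines as multiples of this mean.

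The intervals lay on 72 sequences in HCT116 and on 54 in LoVo, and each of the 54 also carried intervals in HCT116. All 72 names were GRCh38 names, 14 beginning with GL and 58 with KI. The lists do not say to which chromosome a sequence belongs. The 18 sequences found in HCT116 alone held 26 intervals, at most 4 each. Of the 54 sequences in both lists, 40 held more intervals in HCT116, 13 equal numbers and 1 more in LoVo. Across these 54 sequences the numbers of intervals in the lists had a Spearman rho of 0.83 and a Pearson r of 0.95, as a description, since each point shares the length of its sequence, which was not used here.

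A minority of the sequences held most of the intervals. The 5 leading ones carried 42.9% of the intervals in HCT116 and 43.2% in LoVo, and the 20 with at least 10 intervals in a list carried 507 of 665 and 278 of 366. GL000225.1 had 106 intervals in HCT116, the most in that list, and 46 in LoVo. KI270442.1 had 73 and 47, the most in the LoVo list, GL000216.2 had 47 and 26, GL000224.1 had 33 and 17, and KI270733.1 had 26 and 22. By contrast, 19 of the 72 sequences in HCT116 and 16 of the 54 in LoVo had a single interval.

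**Figure D1:**
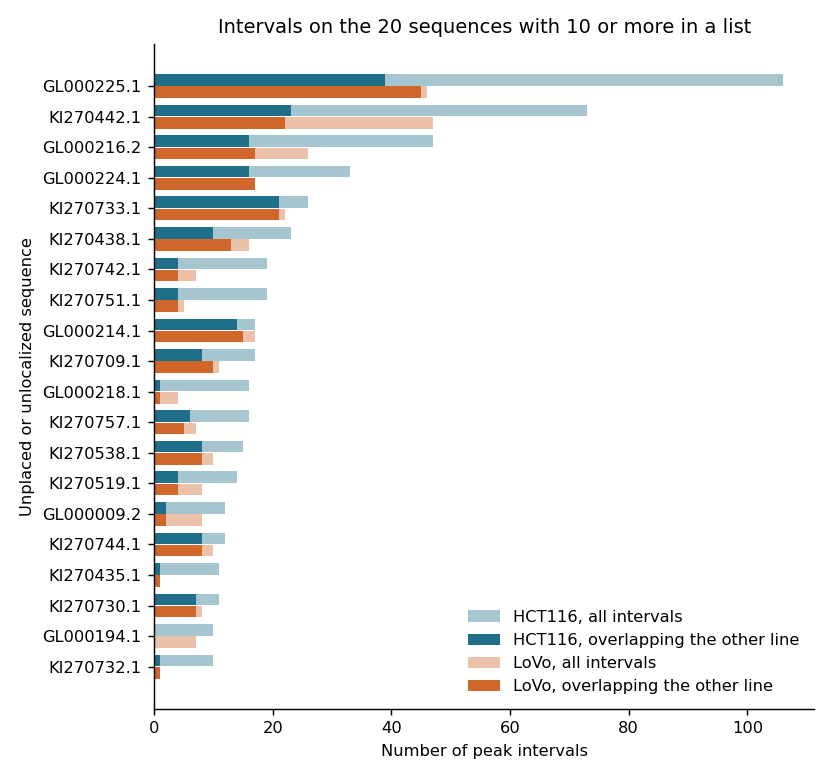
Number of intervals (x axis) on each of the 20 sequences with 10 or more in a list (y axis), in HCT116 (blue) and LoVo (orange); the dark part of a bar counts intervals that overlap one of the other cell line. GL000225.1 leads in HCT116 with 106 intervals, and 45 of its 46 LoVo intervals overlap, whereas no interval on GL000194.1 does.

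The leading sequences differed in the height of their summits. On GL000225.1 the median pileup was 16.3 in HCT116 and 26.5 in LoVo, over median local backgrounds of 2.25 and 10 tags. On KI270442.1, second by number in HCT116 and first in LoVo, summits were low: the median pileup was 8.13 in HCT116 and 9.49 in LoVo, with maxima of 16.3 and 13.7. KI270438.1 had fewer summits, 29 in HCT116 and 20 in LoVo, but the highest of either list on these sequences, with pileups of 402 and 290. Among the 20 sequences with at least 10 intervals in a list, GL000214.1 had the highest enrichment over input in both lines, with a median fold enrichment of 7.43 in HCT116 and 4.25 in LoVo. KI270733.1 combined many intervals with high summits, with median pileups of 37.0 and 77.8.

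Over all unplaced sequences, the pileup of the HCT116 summits ranged from 5.42 to 402, with a median of 10.8 and quartiles of 8.13 and 22.8. Their median was 8.64 times the genome-wide mean, compared with 5.76 times for the summits on assembled chromosomes. In LoVo the pileup ranged from 5.23 to 290, with a median of 15.0 and quartiles of 9.16 and 43.2. That median was 12.8 times the genome-wide mean, compared with 8.37 times on assembled chromosomes. The median summit rested on 12 ChIP tags in HCT116, while that of LoVo rested on 23.

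The input was also higher there. The local background of the HCT116 summits had a median of 2.0, against 1.26 on assembled chromosomes, and equalled the genome-wide mean within 0.01 tags at 32.4% of summits against 55.9%. In LoVo the median was 4.0 against 2.0, and 7.09% of summits against 18.2% were at the genome-wide mean. Over the LoVo summits with a q of 0.05 or less, the median local background was 14.0. A local background of at least 10 times the genome-wide mean lay under 6.90% of the unplaced HCT116 summits and under 31.7% of those of LoVo, and on assembled chromosomes under 2.80% and 15.5%. The median fold enrichment was 4.05 on unplaced against 3.38 on assembled sequence in HCT116, and 2.95 against 3.04 in LoVo. Both pileup and background were thus higher on unplaced sequences in both lines, whereas the ratio of ChIP to input was higher in HCT116 and not in LoVo. The part of copy number in these levels was not tested.

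Of the unplaced summits, 446 of 812 in HCT116 had a q of 0.05 or less, or 54.9% (51.4 to 58.4%), where 29.3% of all HCT116 summits had one. In LoVo these were 186 of 423, or 44.0% (39.2 to 48.8%), where 33.4% of all LoVo summits had one. Within the 100 summits of lowest q, 32 in HCT116 and 39 in LoVo were on unplaced sequences. At the other end, 84 summits in HCT116 (10.3%) and 154 in LoVo (36.4%) had a −log10 q of 0. Of all summits of the lists, 21.5% and 46.6% did. Every summit was listed through its unadjusted p, whatever its q. With q of 0.05 or less required, 342 intervals remained in HCT116 and 151 in LoVo, 32.1% and 33.6% of all intervals so chosen, so the difference between the lines in this share became smaller. With a fold enrichment of at least 5 its direction turned, to 40.8% in HCT116, from 185 unplaced intervals, and 25.6% in LoVo, from only 22.

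**Figure D2:**
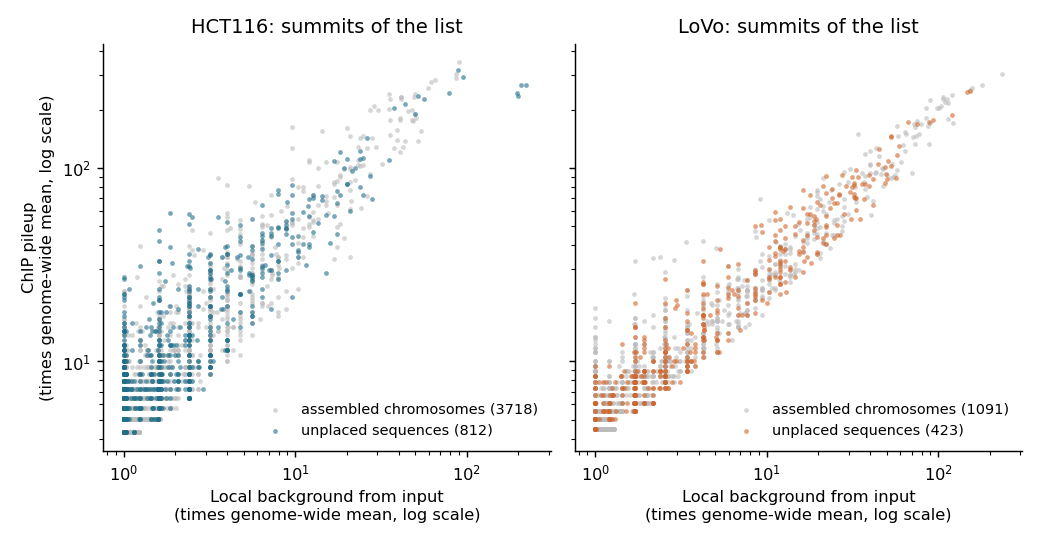
ChIP pileup (y axis) against local background from input (x axis) at each summit, both as multiples of the genome-wide mean on log scales, for HCT116 (left) and LoVo (right); coloured points are the 812 and 423 summits on unplaced sequences and grey points those on assembled chromosomes. A peak has to exceed its background to be listed, which leaves the lower right of both panels empty, and the 4 blue points at the far right of the HCT116 panel are the summits on KI270467.1.

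Among the unplaced intervals, the 5 strongest of HCT116 by q lay on 3 sequences. The first was KI270438.1:109080-110753, whose best summit held 445 ChIP tags (exact Poisson 95% interval 405 to 488), a pileup of 402 over a local background of 111, and a fold enrichment of 3.60. KI270709.1:6546-7806 followed with a pileup of 255 over 47.0, and KI270438.1:103831-107081 with 295 over 65.0. GL000214.1:128999-129822 was of another kind: its best summit held 81 tags (64.3 to 101), a pileup of 73.2 over a local background of only 2.34, a fold enrichment of 22.2. This was the highest fold enrichment in the whole HCT116 list. KI270438.1:111667-112495 completed the 5, with a pileup of 285 over 71.0. All 5 overlapped a LoVo interval, as did 84.9% of all unplaced HCT116 intervals with a pileup of 32 times the genome-wide mean or more. On assembled chromosomes that share was 83.9%.

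In LoVo, 3 of the 5 strongest unplaced intervals by q lay on KI270733.1. These were KI270733.1:154713-155903, with 162 tags (138 to 189) and a pileup of 106 over 26.0, KI270733.1:168623-169202, with 89.6 over 19.0, and KI270733.1:158470-158976, with 168 over 62.0. KI270438.1:104590-105130 had a pileup of 201 over 78.0, and KI270709.1:7147-7752 a pileup of 171 over 62.0. All 5 overlapped an HCT116 interval, as did all 85 unplaced LoVo intervals with a pileup of 32 times the genome-wide mean or more. On assembled chromosomes 117 of 131 such intervals did.

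Some listed peaks rose little above a very high background. The 3 highest local backgrounds of the unplaced HCT116 summits were all on KI270467.1, at 276, 261 and 248 tags, under pileups of 335, 337 and 295, so that the fold enrichment was between 1.19 and 1.29. LoVo had no interval on this sequence. Among the unplaced LoVo summits, the highest local backgrounds, 180, 172 and 140 tags, were on KI270438.1, under pileups of 290, 287 and 219, with fold enrichments of 1.61, 1.67 and 1.56.

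Most intervals had a single summit. More than 1 was called in 86 of 665 in HCT116, or 12.9% (10.5 to 15.7%), and in 33 of 366 in LoVo, or 9.02% (6.29 to 12.4%). On assembled chromosomes the shares were 4.11% (3.47 to 4.82%) and 6.90% (5.42 to 8.64%), so the intervals of the shares were apart in HCT116 and overlapped in LoVo. Neighbouring summits of 1 interval were a median of 481 bp apart in HCT116, over 147 gaps, and 459 bp in LoVo, over 57 gaps. The unplaced intervals had median lengths of 439 bp (HCT116) and 412 bp (LoVo), against 311 and 364 bp on assembled chromosomes.

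The interval with most summits was on KI270733.1 in both lists: KI270733.1:145031-152429 in HCT116 with 12 summits over 7399 bp, and KI270733.1:143802-152376 in LoVo with 14 over 8575 bp. Next in HCT116 came KI270736.1:172008-175672 with 8 summits, all of pileup 19.0 or less, and GL000225.1:56757-60623 with 7. In LoVo they were GL000008.2:187-3856 with 6 and KI270744.1:107992-109793 with 4. The HCT116 interval GL000008.2:100-4384 also had 6 summits, of which those at 2149 and 3093 lay within 15 bp of LoVo summits at 2134 and 3090. This interval began close to the first base of its sequence, as did others: 29 HCT116 intervals on 26 sequences and 13 LoVo intervals on 12 sequences started within the first 1000 bp.

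Positions were then compared between the lines. Of the HCT116 intervals on unplaced sequences, 246 of 665 overlapped a LoVo interval by at least 1 bp, or 37.0% (33.3 to 40.8%), where 13.9% of all HCT116 intervals did. Of the LoVo intervals, 261 of 366 overlapped, or 71.3% (66.4 to 75.9%), where 45.1% of all LoVo intervals did. On assembled chromosomes the shares were 9.45% and 35.7% by the same rule. With a reciprocal overlap of at least 50% the unplaced shares were 22.9% in HCT116 and 41.5% in LoVo, and with summits within 50 bp 21.1% and 41%. A longer interval, such as one with several summits, reaches an overlap of 1 bp more easily. Overlapping intervals were higher and longer. In HCT116 their highest pileup had a median of 22.6 and their length one of 569 bp, against 9.03 and 372 bp for the others. In LoVo the medians were 23.5 and 421 bp against 7.85 and 359 bp. At the summit of lowest q, the median local background was 2.35 against 1.33 in HCT116 and 5.45 against 1.97 in LoVo. The median fold enrichment there was 5.08 against 3.65 in HCT116, but 2.94 against 3.17 in LoVo. More than 1 summit was found in 26.4% of the overlapping HCT116 intervals and 5.01% of the others, and in LoVo in 12.3% and 0.952%. On assembled chromosomes these shares were 29.5% and 1.46% in HCT116, and 15.7% and 1.99% in LoVo.

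Height therefore bears on the comparison with assembled chromosomes, and the shares were also taken within classes of pileup. For intervals under 8 times the genome-wide mean, 18.6% (14.6 to 23%) of 350 unplaced and 2.96% (2.38 to 3.64%) of 2937 assembled HCT116 intervals overlapped. At 32 times or more, the shares were 84.9% (75.5 to 91.7%) of 86 and 83.9% (76.2 to 89.9%) of 124. In LoVo, 33.0% (24.6 to 42.4%) of 115 unplaced and 9.79% (7.38 to 12.7%) of 521 assembled intervals overlapped in the lowest class, and all 85 unplaced against 117 of 131 assembled in the highest. The unplaced share was the larger in each of the 4 classes in both lists, with the smallest gap for the highest HCT116 intervals. How often intervals would overlap by position alone was not tested.

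**Figure D3:**
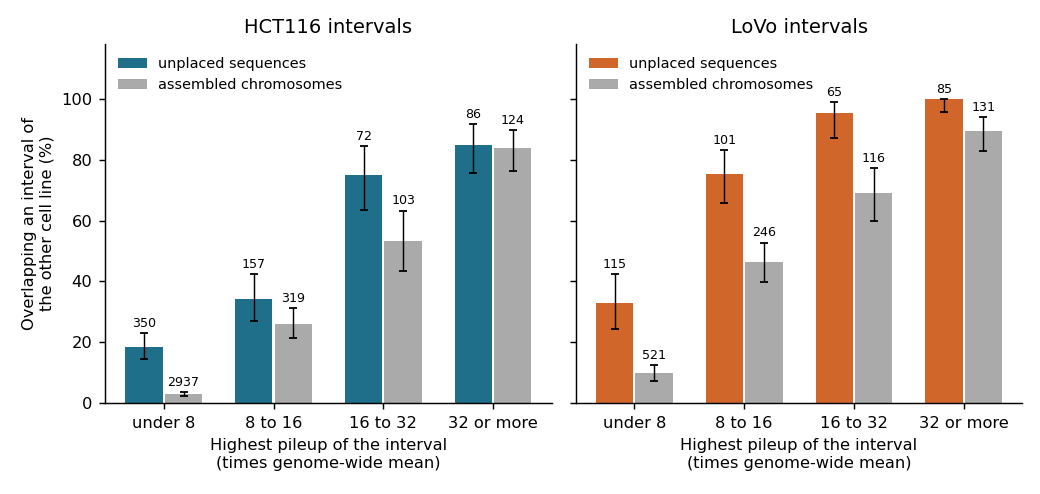
Share of intervals that overlap an interval of the other cell line (y axis, %) by the highest pileup of the interval in multiples of the genome-wide mean (x axis), for HCT116 (left) and LoVo (right); coloured bars are unplaced sequences, grey bars assembled chromosomes, lines exact binomial 95% intervals and the printed digits numbers of intervals. On unplaced sequences the share rises in HCT116 from 18.6% to 84.9%, and that of LoVo from 33.0% to 100%.

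Sequences differed in this respect. On KI270733.1, 21 of 26 HCT116 and 21 of 22 LoVo intervals overlapped, and on GL000214.1 they were 14 of 17 and 15 of 17. On GL000225.1 only 39 of 106 HCT116 intervals overlapped, but 45 of 46 of LoVo, and on GL000224.1 they were 16 of 33 and all 17. On KI270442.1 the numbers were 23 of 73 and 22 of 47. Few intervals overlapped on GL000218.1, with 1 of 16 and 1 of 4, and on GL000009.2, with 2 of 12 and 2 of 8. On GL000194.1 none of the 10 HCT116 and none of the 7 LoVo intervals did. The highest pileup on these last 3 sequences was 13.6 in HCT116 and 10.5 in LoVo.

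The 270 pairs of overlapping intervals had their nearest summits a median of 36.5 bp apart, with quartiles of 13 and 132 bp and a maximum of 759 bp. In 53 pairs the distance was 10 bp or less and in 150 it was 50 bp or less. When the highest summit of each interval was taken instead, the median distance was 75.5 bp. Since each position is that of the single highest base of a pileup of tags extended to fragment length, most overlapping intervals had summits closer than 1 extended tag is long.

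Matched summits, each the nearest of its list to the other and at most 50 bp away, allowed height to be compared at the same position. There were 167 such pairs. Their median pileup was 37.0 in HCT116 and 38.6 in LoVo, or 29.5 and 32.9 times the genome-wide mean. The ratio of LoVo to HCT116 on the latter scale had a median of 1.04 (95% interval from ranks 0.961 to 1.09), ranged from 0.412 to 4.43, and lay within 2-fold at 152 pairs. LoVo was the higher at 91 of 167. The local background was different. Its median was 4.0 tags in HCT116 and 14.0 in LoVo, the ratio of LoVo to HCT116 on the scale of the genome-wide mean had a median of 2.54 (2.14 to 2.79), and LoVo was the higher at 161 of 167. The fold enrichment was accordingly higher in HCT116 at 162 of 167, with medians of 5.71 and 2.78.

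At matched summits the ChIP libraries of the lines thus had similar heights, while the input of LoVo was higher. The same held on assembled chromosomes, where the median ratio was 1.01 for the pileup and 2.25 for the local background over 236 pairs. Summits matched in this way had passed the peak threshold in both lines. Since fold enrichment is computed from pileup and local background, at similar pileups it is lower where the background is higher. The background comes from 1 input library for each line, and line, library and tag size cannot be told apart.

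**Figure D4:**
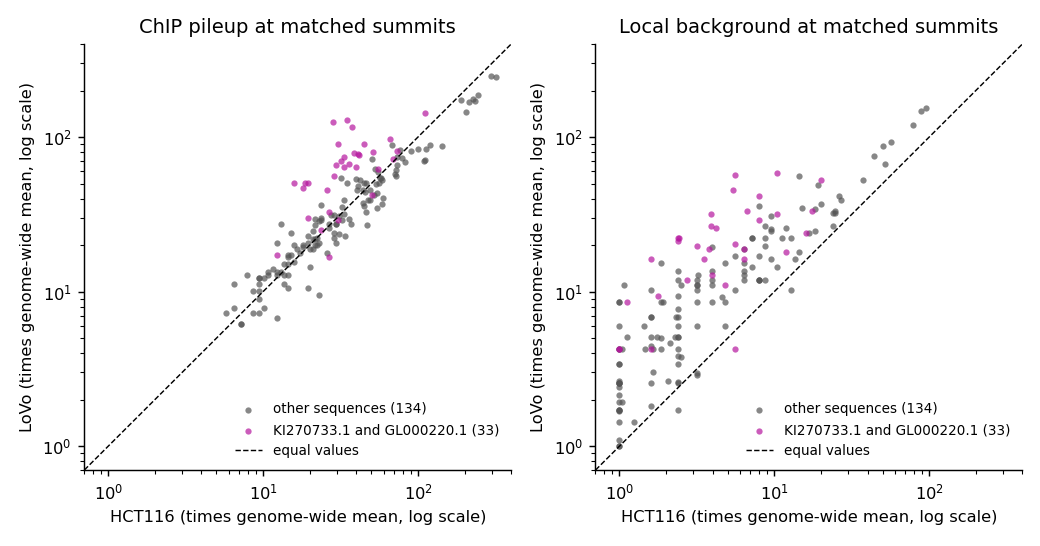
ChIP pileup (left) and local background from input (right) at the 167 matched summits on unplaced sequences, HCT116 on the x axis and LoVo on the y axis, as multiples of the genome-wide mean on log scales; magenta points lie on KI270733.1 and GL000220.1 and the dashed line marks equal values. Pileups scatter around the line except for most magenta points, and 161 of the 167 backgrounds lie above it.

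Single positions show both patterns. On KI270438.1, the HCT116 summit at 109441 had a pileup of 402 over 111 and the LoVo summit at 109465 one of 287 over 172, so that the fold enrichment was 3.60 and 1.67. On KI270709.1, the summits at 7410 and 7416 had 255 over 47.0 in HCT116 and 171 over 62.0 in LoVo. On GL000214.1, the summits at 118591 fell on the same base, with 41.6 over 2.0 in HCT116 and 37.3 over 8.0 in LoVo. In these 3 places the HCT116 pileup was the higher and its background the lower. By sequence, the median ratio of LoVo to HCT116 pileup was 0.990 over the 36 pairs on GL000225.1, 1.05 over the 14 on GL000214.1, 0.741 over the 11 on KI270709.1 and 0.783 over the 9 on KI270438.1. KI270733.1 stood apart, with a median of 1.95 over its 28 pairs and a median ratio of 5.12 for the background. LoVo had the higher pileup at 27 of these 28 pairs and the higher background at all 28. Without KI270733.1 and GL000220.1 the remaining 134 pairs had median ratios of 0.958 for the pileup and 2.15 for the background.

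KI270733.1 and GL000220.1 are known to hold ribosomal RNA genes. In these, RNA polymerase I makes a 45S precursor, which is cut into the 18S, 5.8S and 28S RNAs of the ribosome, and a long intergenic spacer separates 1 precursor gene from the next. RefSeq on GRCh38.p14 lists RNA45SN4 at bases 122273 to 135645 and RNA45SN5 at bases 105424 to 118780, but its table used here does not name the sequences. They were taken as KI270733.1 and GL000220.1 from general knowledge of the assembly and after their values had been seen. Positions below are counted from the start of the 45S gene and rest on this pairing.

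On KI270733.1, most summits lay beyond the 45S gene. Of 48 summits in HCT116, 4 lay in the 13.4 kb of RNA45SN4, 36 between its end and 45.1 kb (the distance to the same point of the next, partial copy, measured between the annotated 5.8S genes), 6 beyond that and 2 before the gene. Of 42 in LoVo, the numbers were 4, 32, 5 and 1. Neither line had a summit in RNA18SN4 or RNA5-8SN4, and each had 1 in RNA28SN4, near its end, at 12.852 kb in HCT116 and 12.862 kb in LoVo. The lists rest on uniquely mapped tags, so stretches alike in several copies may hold few tags in ChIP and input. The spacer is also the longer part of the unit. What part either has in where the summits lie was not tested. The summit before the gene was also shared, at −3.153 kb in HCT116 and −3.164 kb in LoVo, and HCT116 had a further one of 11 tags at −95.0 kb.

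Summits of the spacer had pileups from 14.5 to 139 with a median of 39.8 in HCT116, over a median local background of 7.0. In LoVo they ranged from 34.0 to 168 with a median of 83.1, over 31.7. Both lines had their highest there at nearly the same base, 36.444 kb in HCT116, with 139 over 25, and 36.445 kb in LoVo, with 168 over 62.0. The single highest LoVo background was 69.0 tags, at 23.055 kb, while that of the HCT116 summit at 23.014 kb was 13.0. Just past the end of the 45S gene, the pair at 13.471 and 13.447 kb had a fold enrichment of 16.3 in HCT116 and 3.66 in LoVo. In the 45S gene of HCT116 the pileup ran from 8.13 to 41.6 and the local background from the genome-wide mean to 3.0. In that of LoVo the pileup ran from 9.81 to 87.0 and the local background from the genome-wide mean to 26.0.

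GL000220.1 had fewer summits, 12 in HCT116 and 9 in LoVo. All 9 of LoVo and 10 of the 12 of HCT116 lay between the end of RNA45SN5 and 40.6 kb, and none lay in the 45S gene. The limit set by uniquely mapped tags holds here too. HCT116 had 1 more at −3.241 kb, with a pileup of 19.9 over 2.08, and 1 at −37.3 kb with 8 tags. The summit at 36.666 kb was on the same base in both lines, with 92.2 over 10 in HCT116 and 94.8 over 34.0 in LoVo. The copies of the ribosomal array are alike, so a tag of 1 copy may be assigned to another, and which copies in the cell these tags came from cannot be read from the lists.

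**Figure D5:**
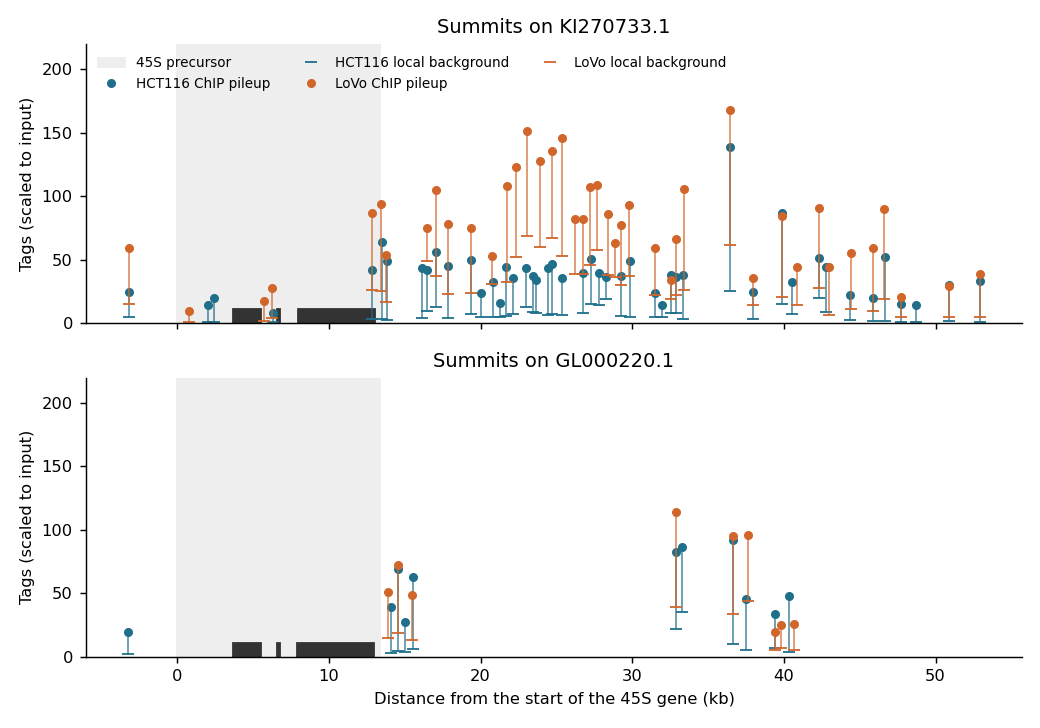
ChIP pileup (points) and local background (short bars) at the summits on KI270733.1 (top) and GL000220.1 (bottom), in tags scaled to the input library, by distance from the start of the 45S gene (kb), with the 45S gene in grey and the 18S, 5.8S and 28S genes in black. Summits lie mostly right of the 45S gene, the LoVo background reaches 69.0 near 23 kb, and 1 HCT116 summit far upstream on each sequence is left out.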

How the data were processed

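S100A10 ChIP and input DNA of HCT116 and LoVo were sequenced, 1 library each. The file headers show that the authors called peaks for each line with MACS2 (2.1.0.20150420) from uniquely mapped tags without duplicates, at a p-value cutoff of 0.005, extending tags to 260 bp in HCT116 and 281 bp in LoVo. The aligner and genome build are not given in the sources used here. Per line, the authors deposited a signal (the pileup, scaled by 0.903 and 0.654), a ratio (the fold enrichment, with a pseudocount of 1), −log10 p, and a last score column, read as −log10 q although the header says that q is not calculated; names of the last pair of columns were damaged and follow MACS2's column order.

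From these, the local background was computed as (pileup + 1) / fold enrichment − 1 and tags as pileup over the scaling factor. It was a whole number within 0.01 at 37.3% of unplaced HCT116 and 57.0% of unplaced LoVo summits. The genome-wide mean is scaled tags times extension over the genome size of 3099750718 bp in the headers. Overlap needed 1 bp on the same sequence. Functions were tested on simulated lists. With 1 library per arm no test or replicate comparison was possible. Shares have exact Clopper-Pearson and tags exact Poisson intervals, and medians intervals from binomial ranks.

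The members and lists were chosen with earlier results of these data known. Named were sequences with 10 or more intervals in a list, the 5 intervals of lowest q and the 3 with most summits per list, and the 3 summits of highest local background per list. Matched summits, the ribosomal genes, the other sequences and positions were chosen after values were seen. Alternatives were other limits on q and fold enrichment, other units and other overlaps. Sequences and lengths of the unplaced pieces were not used here. Software was scipy 1.17.1, pandas 2.3.3, numpy 2.4.6 and, for plots, matplotlib 3.10.9, under Python 3.11.15.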

Additional observations from a re-analysis of the deposited data

How the results depend on the processing

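Of 68 alternative values, 29 stayed within 1.5 times of a count or within the 95% interval of a share or median, and 39 did not. In this paragraph values are for HCT116 and then LoVo unless 1 line is named. With −log10 q of at least 2, intervals numbered 309 and 126, their shares of all intervals were 32.9% and 35.2%, and they lay on 45 and 25 sequences. With q of 0.05 or less the numbers were 342 and 151, the shares 32.1% and 33.6%, and LoVo kept 28 sequences. With fold enrichment of at least 5 they were 185 and 22, on 35 and 10 sequences, and 40.8% and 25.6% of all, which turns the order of the lines. The share was 17.9% by summits in HCT116, and 21.7% and 29.8% by covered bases. With q of 0.05 or less, intervals with more than 1 summit were 18.4% and 13.2%, and the median local background 2.35 and 14.0. The median pileup as ChIP tags was 12 and 23, and without KI270442.1, the sequence with most LoVo intervals, the median scaled pileup of LoVo rose from 15.0 to 20.3 and its median background to 5.0. The HCT116 background was 1.79 at the highest summit per interval and 2.67 without the pseudocount. Overlap fell to 22.9% and 41.5% with a reciprocal overlap of 50% and to 21.1% and 41% with summits within 50 bp. It was 90.5% and 86.1% in LoVo with −log10 q of at least 2 and q of 0.05 or less in both lists. The summit distance was 75.5 bp between highest summits and 25 bp with reciprocal overlap. The ratio of pileups at matched summits was 0.958 without KI270733.1 and GL000220.1 and 1.13 per input tag, alternatives added after the data were seen. A stricter limit keeps fewer summits by construction; the cause was not tested for the other changes. No replicate could be left out. No paired analysis was possible because each group had 1 library and no result comes from a test.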
